A study of Mus musculus with 2 samples.

Results

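CTCF and cohesin shape how chromosomes fold, and their transcripts were compared here between ES cells and embryonic forebrain. The genes are *Ctcf*, the cohesin subunits *Smc1a*, *Smc3*, *Rad21*, *Stag1* and *Stag2*, the loading factor *Nipbl*, the release factor *Wapal* (now *Wapl*), and the meiotic subunits *Smc1b* and *Stag3*. They were chosen by symbol, and all 10 are found among the 29311 genes listed in both tables. RNA-seq was done on 1 sample of ES cells, of the wild-type (WT) line E14, and on 1 sample of forebrain cells of WT B6CBAF1/J embryos at E10.5. The ES cells grew without feeders in serum with LIF, and the methods state that forebrain RNA came from single embryos. An established line in culture was therefore set against a dissected tissue of another strain, and strain, culture and cell type cannot be told apart.

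Cohesin is a ring that holds DNA. *Smc1a* and *Smc3* encode its long coiled-coil arms, *Rad21* the kleisin that closes the ring, and *Stag1* or *Stag2* a further subunit bound to the kleisin. NIPBL places the ring on chromatin and stimulates the extrusion of loops, WAPL releases it, and the zinc finger protein CTCF halts it at its binding sites, which lie at many boundaries of topological domains. In meiosis the subunits SMC1B, STAG3, REC8 and RAD21L take the place of the somatic ones.

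The deposited value per gene, called RPKM, is a level per kb of exon. Many of its low values are whole multiples of the contribution of 1 read, from which 42745856 reads on genes were inferred for ES cells and 59782430 for the forebrain. Set against these reads, the values were 52.2 times (ES cells) and 49.0 times (forebrain) as high as an RPKM by its usual definition, so that the levels printed here can be compared within these tables but not with RPKM from elsewhere. With 1 sample per group no spread between samples and no test could be had. The 95% intervals below come from the inferred reads and cover counting error only. The labels were met by the markers, since all 7 pluripotency genes were more than 2-fold higher in ES cells and all 7 forebrain genes in E10.5 forebrain. The most abundant forebrain gene, *Nes*, had 182.9 RPKM in ES cells and 4127.24 RPKM in forebrain, and *Lhx2* was at 0 in ES cells. Most markers of other cell types were also higher in forebrain, with 5 of 5 erythroid, 5 of 5 head mesenchyme and 4 of 5 endothelial genes past 2-fold. The summed RPKM of 5 erythroid genes was 371.52 in ES cells and 798248.1 in forebrain (1.11% of its reads), that of 5 head mesenchyme genes 55.48 and 7302.25, and that of 5 endothelial genes 579.49 and 1791.04. The exception, named after its value was seen, was the endothelial *Pecam1*, with 551.14 RPKM in ES cells and 316.51 RPKM in forebrain. In such bulk samples, fewer cells of a type and less RNA per cell cannot be told apart, and the part of these cells in the values below was not tested.

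*Smc1a*, *Rad21* and *Nipbl* had levels 1.64 to 1.74 times as high in E10.5 forebrain, below the limit of 2-fold, and *Stag1*, *Stag2*, *Ctcf* and *Smc3* differed by less than 1.5-fold. *Wapal* was close to 2-fold higher in ES cells, and the meiotic subunits were about 10-fold or more higher in ES cells. Of the 10 genes, 2 (*Smc1b* and *Stag3*) were at least 2-fold higher in ES cells on the log2(RPKM + 1) scale, where 23.3% of all listed genes were. None was 2-fold higher in E10.5 forebrain (0 of 10), where 25.8% of all listed genes were. Among protein-coding genes these shares were 18.9% and 27.9%. With a limit of 1.5-fold, 3 of the 10 genes were higher in ES cells (*Wapal*, *Smc1b* and *Stag3*; 32.5% of all listed and 27.6% of protein-coding genes) and 3 in forebrain (*Smc1a*, *Rad21* and *Nipbl*; 34.2% and 37.3%). The median log2 ratio of ES cells over forebrain was -0.25 over the 10 genes, compared with -0.01 over all listed genes and -0.18 over protein-coding genes that reached an RPKM of 1 in a sample. As the scaling between the tables is not stated, ratios are also given relative to the latter median. Relative to it, 3 of the 10 genes were 2-fold higher in ES cells, with *Wapal* added, and 0 in forebrain, compared with 22.1% and 24.9% of protein-coding genes. The 8 somatic genes ranged from 411.9 to 4898.4 RPKM in ES cells and from 717.67 to 2643.75 RPKM in forebrain.

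**Figure D1:**
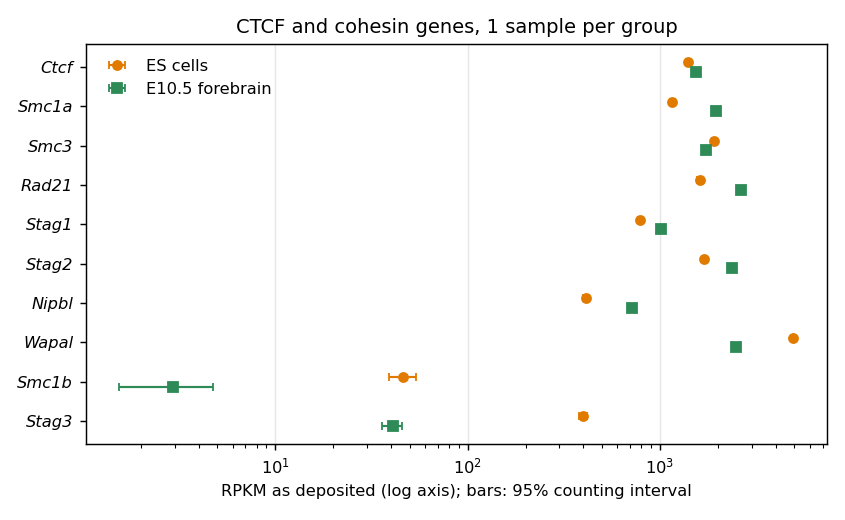
RPKM as deposited (log axis) of the 10 genes in ES cells (orange circles) and E10.5 forebrain (green squares), 1 sample each, with bars for 95% counting intervals that are often smaller than the symbol. *Wapal* has the highest level in ES cells (4898.4), and *Smc1b* and *Stag3* have the lowest levels in forebrain (2.94 and 40.79).

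*Ctcf* (ENSMUSG00000005698; NCBIM37 chromosome 8, 108160468 to 108206822) had 1402.24 RPKM in ES cells (1365.6 to 1439.5) and 1544.89 RPKM in E10.5 forebrain (1513.4 to 1576.8). It ranked 1864th and 1465th among the 19620 protein-coding genes, from 5577 and 9166 reads. The level in forebrain was 1.1 times that in ES cells (1.07 to 1.14). This difference exceeds counting error but not the choice of scaling, since the log2 ratio of -0.14 became 0.04 relative to the protein-coding median. *Ctcfl*, the testis paralog of *Ctcf*, had 6.26 RPKM in ES cells from 16 reads and 0.83 RPKM in forebrain from 3 reads, a ratio of 7.54 (2.28 to 42.6). The protein-coding genes with levels closest to those of *Ctcf*, by distance of log2(RPKM + 1) over the 2 samples, were *Mtap*, *Txlna* and *Sgta* (distances 0.03, 0.035 and 0.039, over 19619 genes). With only 2 values per gene this is a weak measure of likeness.

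The genes of the core ring differed in direction. *Smc1a* (chromosome X, 148450971 to 148497237) had 1159.5 RPKM in ES cells and 1964.52 RPKM in forebrain, 1.69-fold higher in the latter (1.64 to 1.75). *Rad21* (chromosome 15, 51794151 to 51823306) had 1608.57 RPKM in ES cells and 2643.75 RPKM in forebrain, 1.64-fold higher in the latter (1.59 to 1.7). *Smc3* (chromosome 19, 53674886 to 53720323), by contrast, had 1909.55 RPKM in ES cells and 1728.08 RPKM in forebrain, 1.11-fold higher in ES cells (1.07 to 1.14). The *Smc3* ratio was 0.14 on the log2 scale and became -0.13 under scaling to the total of all values. Ratios between genes of a sample do not depend on that scaling. They do depend on the exonic length used for each gene, which the counting intervals do not cover. In RPKM, *Smc1a* was at 0.607 times *Smc3* in ES cells (0.587 to 0.628) and at 1.14 times *Smc3* in forebrain (1.11 to 1.17). *Rad21* was at 0.842 times *Smc3* in ES cells (0.813 to 0.873) and at 1.53 times in forebrain (1.49 to 1.57). Relative to *Smc3*, *Smc1a* was therefore 1.87-fold higher in forebrain (1.8 to 1.95), and *Rad21* 1.82-fold (1.74 to 1.9). The *Smc3* coding sequence has 3 stretches of similar sequence elsewhere in the genome (at least 100 bp at 90% identity), the longest of 618 bp at 94.5% identity and without an annotated gene. No such copy was found for the other 9 genes, and none of the 10 shares a 50-base word of coding sequence with another protein-coding gene or an exon with another gene.

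*Stag1* and *Stag2* encode alternative subunits of the somatic ring. *Stag1* (chromosome 9, 100498217 to 100858964) had 785.17 RPKM in ES cells and 1008.3 RPKM in forebrain, 1.28-fold higher in the latter (1.25 to 1.32). *Stag2* (chromosome X, 39502494 to 39630362) had 1687.2 RPKM in ES cells and 2361.22 RPKM in forebrain, 1.4-fold higher in the latter (1.37 to 1.43). *Stag2* was the more abundant in both samples, with 68.2% of the summed RPKM of both genes in ES cells (67.6 to 68.9%) and 70.1% in forebrain (69.6 to 70.5%). The balance of both paralogs thus differed by little, though by more than counting error. *Smc1a* and *Stag2* are X-linked. The median log2 ratio was -0.46 over 677 X-linked protein-coding genes that reached an RPKM of 1 and -0.17 over 17551 autosomal ones, compared with -0.76 for *Smc1a* and -0.48 for *Stag2*. *Xist*, the RNA of the inactive X chromosome, was looked up after these values were seen and had 67.17 RPKM in ES cells and 761.75 RPKM in forebrain. The part of *Xist*, and of the sex of the line and the embryos, in the levels of *Smc1a* and *Stag2* was not tested.

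Among the loading and release genes, *Wapal* alone was higher in ES cells as deposited. *Nipbl*, *Mau2* and *Pds5b* were higher in forebrain, of which *Pds5b* was past 2-fold, and *Pds5a* was slightly higher there. *Nipbl* (chromosome 15, 8241225 to 8394463) had the lowest level of the somatic genes, with 411.9 RPKM in ES cells (397.0 to 427.0) and 717.67 RPKM in forebrain (702.0 to 734.0). It was 1.74-fold higher in forebrain (1.67 to 1.82), the largest difference in this direction among the 10 genes. *Mau2*, which encodes the partner of NIPBL in the loader, had 578.32 RPKM in ES cells and 900.36 RPKM in forebrain, 1.56-fold higher in the latter (1.49 to 1.63).

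*Wapal* (chromosome 14, 35487114 to 35561169) had 4898.4 RPKM in ES cells (4839.7 to 4957.8) and 2488.19 RPKM in forebrain (2454.0 to 2522.8), from 26551 and 20119 reads. It was 1.97-fold higher in ES cells (1.93 to 2.01), just short of the limit of 2-fold on the log2(RPKM + 1) scale (0.98). Relative to the protein-coding median the log2 ratio was 1.16 and past that limit, whereas scaling by the sum of values gave 0.7. *Wapal* ranked 353rd among protein-coding genes in ES cells and 728th in forebrain. In ES cells the RPKM of *Wapal* was 11.9 times that of *Nipbl* (11.4 to 12.4), compared with 3.47 times in forebrain (3.38 to 3.56). This ratio of the release gene to the loading gene was therefore 3.43-fold higher in ES cells (3.28 to 3.59), whatever the scaling. In the same way, the ratio of *Wapal* to *Rad21* was 3.05 in ES cells and 0.941 in forebrain, 3.24-fold apart (3.11 to 3.36). The ratio of *Wapal* to *Smc3* was 2.57 in ES cells and 1.44 in forebrain, only 1.78-fold apart (1.72 to 1.84). The size of the shift thus depended on the gene that *Wapal* was set against. *Pds5a* and *Pds5b* encode proteins that bind WAPL and take part in both release and protection of cohesin. *Pds5a* had 3022.09 RPKM in ES cells and 3576.72 RPKM in forebrain, 1.18-fold higher in the latter (1.16 to 1.21). This difference nearly vanished relative to the protein-coding median, where the log2 ratio of -0.24 became -0.06. *Pds5b* had 510.46 RPKM in ES cells and 1167.47 RPKM in forebrain, and was 2.29-fold higher in forebrain (2.21 to 2.37).

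**Figure D2:**
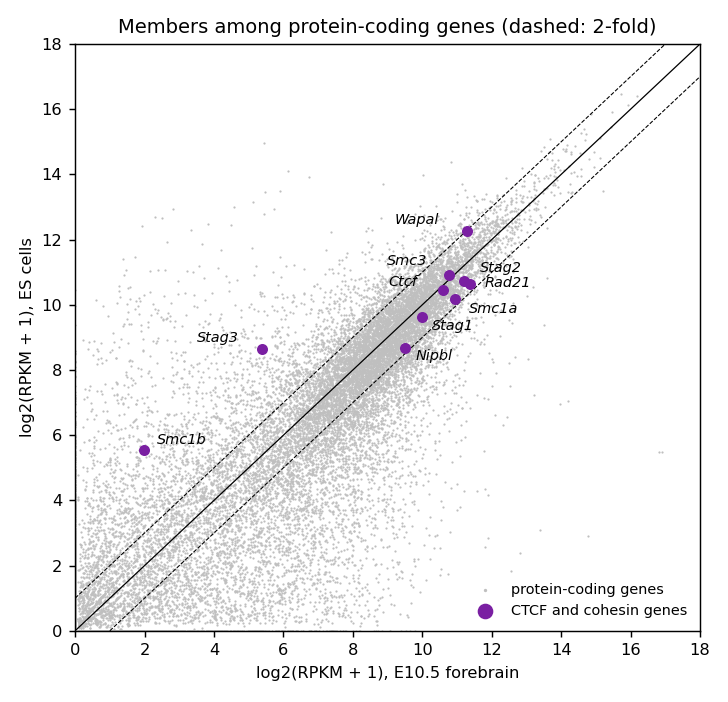
Level on log2(RPKM + 1) in E10.5 forebrain (x axis) and ES cells (y axis), 1 sample each, for protein-coding genes (grey) and the 10 genes (purple), with the line of equal level and dashed lines at 2-fold. The somatic genes lie within the dashed lines, with *Wapal* at the upper line (log2 ratio 0.98), and *Smc1b* and *Stag3* lie far above (3.58 and 3.26).

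The meiotic subunits had the largest differences. *Stag3* (chromosome 5, 138721468 to 138753621) had 398.22 RPKM in ES cells (380.0 to 417.0) from 1868 reads and 40.79 RPKM in forebrain (36.1 to 45.7) from 285 reads. It was 9.76-fold higher in ES cells (8.63 to 11.1). In ES cells its level was that of *Nipbl* within counting error (ratio of *Nipbl* to *Stag3* 1.03, 0.976 to 1.1), at percentile 75.2 of the listed genes. This likeness also rests on the exonic lengths used, 8815 bp for *Nipbl* and 5733 bp for *Stag3*. *Smc1b* (chromosome 15, 84895121 to 84962387) had 46.11 RPKM in ES cells (39.0 to 53.9) from 152 reads and 2.94 RPKM in forebrain (1.55 to 4.76) from 14 reads. It was 15.7-fold higher in ES cells (9.36 to 30.3). Both genes were thus well above their level in forebrain, yet *Smc1b* stayed near the middle of all genes in ES cells, at percentile 49.4.

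The kleisin genes of meiosis differed in the same direction. *Rec8* had 131.28 RPKM in ES cells from 295 reads and 20.57 RPKM in forebrain from 69 reads, 6.38-fold higher in ES cells (4.89 to 8.41). *Rad21l* had 7.4 RPKM in ES cells from 10 reads and was at 0 in forebrain, so that it was at least 4.97-fold higher in ES cells against a floor of 3 reads. With the counting error of the 10 reads included, the interval of the ratio began lower, at 3.34. Genes of meiosis and germ cells outside cohesin were also higher in ES cells, with 9 of 11 past 2-fold, compared with 23.3% of all listed genes. Their summed RPKM was 1175.52 in ES cells and 133.9 in forebrain. None of the 11 was at 0. The exceptions, named after their values were seen, were *Stra8*, which starts meiosis and had 0.68 RPKM in each sample from 1 read, and *Spo11*, the nuclease that opens meiotic recombination and had 0.31 RPKM in ES cells from 1 read and 3.13 RPKM in forebrain. *Syce1*, of the synaptonemal complex, had the highest level of the list in ES cells, 318.58 RPKM.

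As shares of their families, the meiotic subunits were a minority in both samples. *Smc1b* held 3.82% of the summed RPKM of *Smc1a* and *Smc1b* in ES cells (3.25 to 4.45%) and 0.149% in forebrain (0.0789 to 0.242%). *Stag3* held 13.9% of the STAG genes in ES cells (13.3 to 14.4%) and 1.2% in forebrain (1.06 to 1.34%). *Rec8* and *Rad21l* together held 7.94% of the kleisin genes in ES cells (7.12 to 8.83%) and 0.772% in forebrain (0.61 to 0.976%). The levels of the 3 families were thus unequal within ES cells, where the share of *Stag3* was the largest.

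**Figure D3:**
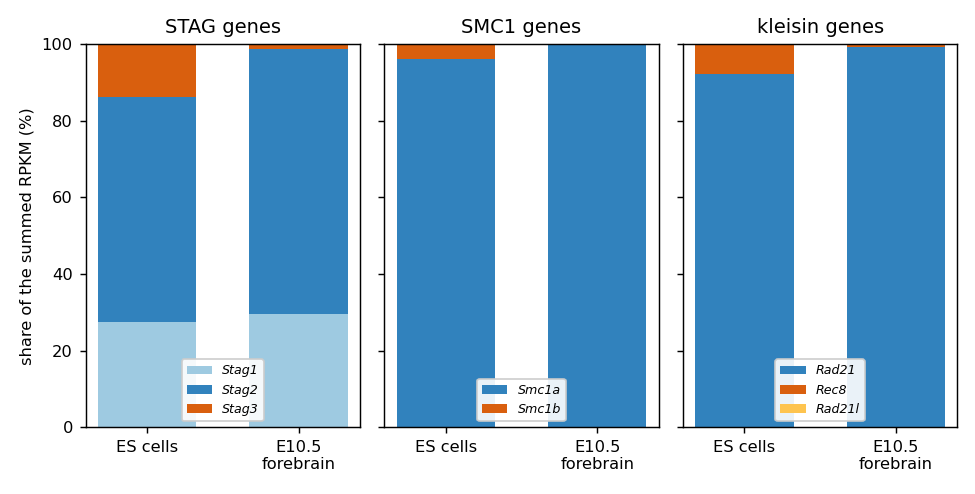
Share of the summed RPKM (y axis, %) of each gene within the STAG, SMC1 and kleisin genes in ES cells and E10.5 forebrain, 1 sample each. The meiotic genes at the top of each bar hold 13.9%, 3.82% and 7.94% in ES cells and 1.2%, 0.149% and 0.772% in forebrain, and *Rad21l* (0.424% in ES cells) is hardly visible.

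The promoters of *Smc1b* and *Stag3* are shown because both genes differed most, with those of *Stag1*, a somatic paralog, and *Wapal* for comparison. E2F6, a repressor of the E2F family, is known to keep *Smc1b* and *Stag3* silent in somatic cells. The sequences are from RefSeq (build GRCm38.p6, not that of the tables), 5′ to 3′ on the strand of the gene, from 250 bases before to 30 bases after the start. Capitals mark TTCCCGC, the core of E2F sites.
Smc1b, chr15:85131928-85132207, minus strand: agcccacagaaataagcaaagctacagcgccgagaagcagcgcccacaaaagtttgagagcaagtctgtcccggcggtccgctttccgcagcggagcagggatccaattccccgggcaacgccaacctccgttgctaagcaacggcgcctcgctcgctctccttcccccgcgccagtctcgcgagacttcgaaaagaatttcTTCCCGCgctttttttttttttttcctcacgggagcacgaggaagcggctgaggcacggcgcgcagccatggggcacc
Stag3, chr5:138280259-138280538, plus strand: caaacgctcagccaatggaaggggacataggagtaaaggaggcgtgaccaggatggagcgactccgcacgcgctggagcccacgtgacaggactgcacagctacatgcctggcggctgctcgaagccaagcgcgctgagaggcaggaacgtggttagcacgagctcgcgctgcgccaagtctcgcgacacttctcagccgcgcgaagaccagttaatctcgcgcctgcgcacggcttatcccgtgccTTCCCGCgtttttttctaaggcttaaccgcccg
Stag1, chr9:100643198-100643477, plus strand: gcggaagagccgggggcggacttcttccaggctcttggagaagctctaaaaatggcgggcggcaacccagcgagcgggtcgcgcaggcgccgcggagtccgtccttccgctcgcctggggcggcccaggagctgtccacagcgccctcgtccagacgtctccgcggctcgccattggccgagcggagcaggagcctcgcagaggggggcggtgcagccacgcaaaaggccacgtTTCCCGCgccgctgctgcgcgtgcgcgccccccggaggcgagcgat
Wapal, chr14:34673678-34673957, plus strand: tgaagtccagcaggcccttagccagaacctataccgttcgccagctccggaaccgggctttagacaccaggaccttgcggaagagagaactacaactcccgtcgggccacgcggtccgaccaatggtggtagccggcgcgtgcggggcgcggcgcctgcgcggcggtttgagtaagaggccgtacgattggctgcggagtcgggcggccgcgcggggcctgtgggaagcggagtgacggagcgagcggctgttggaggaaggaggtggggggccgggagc
TTCCCGC was searched on both strands in 300 bases, up to 50 bases after the start. It begins 48 bases before the start of *Smc1b*, 3 bases before that of *Stag3* and 16 bases before that of *Stag1*, and is not in the window of *Wapal*. Of the 10 genes, 7 had a promoter in the table, and 4 of these held the motif, the last being *Smc1a*, at base 39 counted from the start as base 1, beyond the 280 bases used for printing. Of the promoters of the other pathway genes 4 of 23 held it, and of all 32851 promoters 4.6%. The motif was therefore shared by meiotic genes that were higher in ES cells and by the somatic *Stag1* and *Smc1a*, which were not. It was not found in the windows of *Rec8* and *Rad21l*. A match describes letters only and does not show a bound site. CACGTG, an E-box that does not overlap TTCCCGC in these windows, was found in *Stag3* alone of the 7, 170 bases before the start. It was also found in 3 of the 23 promoters of the other pathway genes and in 7.15% of all promoters. The printed stretches held 28 CpG in *Smc1b*, 30 in *Stag3*, 38 in *Stag1* and 33 in *Wapal*, compared with a median of 6 over all promoters. High counts were not particular to these genes, as the same window held 45 in *Ctcf*, 28 in *Smc3* and 19 in *Smc1a*. TTCCCGC itself contains a CpG, so the 4.6% of all promoters is not a matched background for such stretches. Whether the motif was more frequent than their CpG content would give was not tested.

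The other genes of the pathway were taken from lists by role. Of 27 such genes, 4 were at least 2-fold higher in ES cells (*Esco2*, *Rec8*, *Rad21l* and *Ctcfl*) and 3 in E10.5 forebrain (*Pds5b*, *Hdac8* and *Pttg1*), with a median log2 ratio of 0.11. Over all listed genes these shares were 23.3% and 25.8%, and over protein-coding genes 18.9% and 27.9%. Relative to the protein-coding median the counts were 5 and 2, compared with 22.1% and 24.9% of protein-coding genes. Among so few genes, such counts are not read as a difference from these shares. Cohesion needs acetylation of SMC3 by ESCO1 or ESCO2. *Esco2*, the enzyme of S phase, had 1875.98 RPKM in ES cells and 578.23 RPKM in forebrain, 3.24-fold higher in ES cells (3.1 to 3.39). *Esco1* had 450.3 and 271.8 RPKM, 1.66-fold higher in ES cells (1.55 to 1.78), and part of its coding sequence has a copy elsewhere in the genome (822 bp at 98.8% identity). *Cdca5*, which encodes sororin and guards acetylated cohesin against WAPL, had 2134.08 and 1076.28 RPKM, 1.98-fold higher in ES cells (1.89 to 2.08). *Hdac8*, the X-linked deacetylase of SMC3, had 112.4 RPKM in ES cells and 232.49 RPKM in forebrain, 2.07-fold higher in forebrain (1.86 to 2.31). Of these 4 genes, *Esco2* was past 2-fold towards ES cells and *Hdac8* towards forebrain, and *Esco1* and *Cdca5* were within 2-fold. Relative to the protein-coding median, *Cdca5* was past 2-fold (log2 ratio 1.17) and *Hdac8* was not (-0.86). *Esco2* and *Cdca5* are genes of cycling cells. Of 11 proliferation genes, none at 0, 0 were 2-fold higher in ES cells and 1 in forebrain (*Mki67*, named after its value was seen). Over all listed genes these shares were 23.3% and 25.8%, as above. The median log2 ratio of the 11 genes was 0.43, and the part of proliferation in the values of *Esco2* and *Cdca5* was not tested.

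Cohesin is opened at anaphase by separase (*Espl1*), which is held back by securin (*Pttg1*). *Pttg1* had 307.96 RPKM in ES cells and 1373.61 RPKM in forebrain, 4.46-fold higher in forebrain (4.06 to 4.91), while *Espl1* had 609.05 and 490.22 RPKM, 1.24-fold higher in ES cells (1.19 to 1.3). *Pttg1* was the gene with the largest difference towards forebrain on the role lists. The shugoshin genes *Sgol1* and *Sgol2*, which protect centromeric cohesin, and *Plk1*, a kinase of mitotic release, had log2 ratios of 0.7, 0.33 and 0.11. These 3 values are uncertain, as *Sgol1* and *Plk1* have near-complete copies annotated as pseudogenes (92.7% and 93.4% identity), and 49.7% of the exonic length of *Sgol2* overlaps *Kctd18* on the opposite strand. None of the 10 condensin and SMC5/6 genes differed by 2-fold, with log2 ratios from -0.64 for *Smc6* to 0.7 for *Ncapd3*. Over all listed genes, 23.3% were 2-fold higher in ES cells and 25.8% in forebrain. *Ncaph2* has a near-complete copy in the gene *Gm7535* (92.2% identity), and its value is uncertain. Of the other loop factors, *Yy1* had 1180.48 RPKM in ES cells and 931.57 RPKM in forebrain and *Zfp143* 804.47 and 911.8 RPKM, 1.27-fold higher in ES cells (1.2 to 1.33) and 1.13-fold higher in forebrain (1.07 to 1.2), the latter a difference that vanished relative to the protein-coding median.

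**Figure D4:**
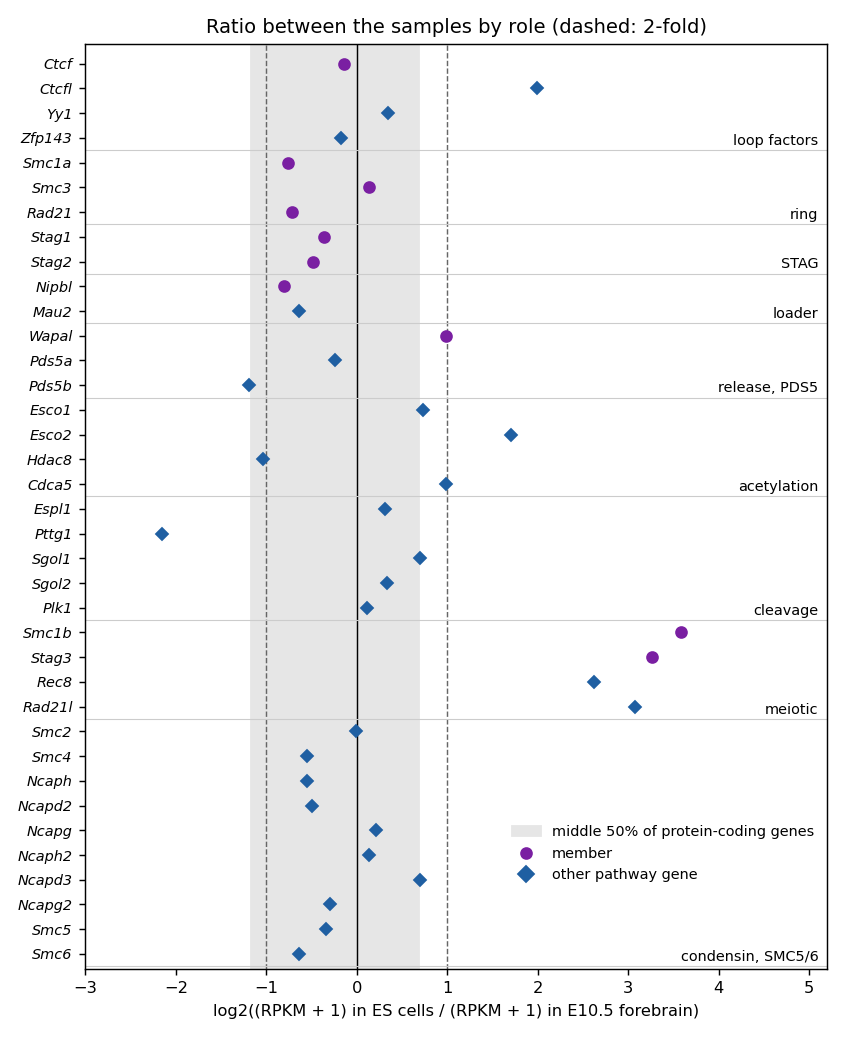
Log2 ratio of RPKM + 1 in ES cells over E10.5 forebrain (x axis), 1 sample each, for the 10 genes (purple circles) and 27 other genes (blue diamonds) by role, with dashed lines at 2-fold and the middle 50% of protein-coding genes in grey (-1.17 to 0.69). All 4 meiotic cohesin genes lie beyond the right dashed line (2.62 to 3.58), and the genes of the ring, the STAG subunits and the loader lie between -0.8 and 0.14.

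The order of the levels differed between the samples. In ES cells, RPKM decreased from *Wapal* over *Smc3*, *Stag2*, *Rad21*, *Ctcf*, *Smc1a*, *Stag1*, *Nipbl* and *Stag3* to *Smc1b*. In E10.5 forebrain the order was *Rad21*, *Wapal*, *Stag2*, *Smc1a*, *Smc3*, *Ctcf*, *Stag1*, *Nipbl*, *Stag3* and *Smc1b*. Neighbours in these orders differed by more than counting error except *Nipbl* and *Stag3* in ES cells. Some of these steps were small, as *Stag2* exceeded *Rad21* by 1.05-fold in ES cells (1.01 to 1.09), and *Wapal* exceeded *Stag2* by 1.05-fold in forebrain (1.03 to 1.07). The orders also depend on the exonic lengths used, which these intervals do not cover. *Stag1*, *Nipbl*, *Stag3* and *Smc1b* took the last 4 positions in both samples. *Smc3* was at position 2 in ES cells and 5 in forebrain, and *Rad21* at 4 in ES cells and 1 in forebrain.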

How the data were processed

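Total RNA was depleted of rRNAs and made into strand-specific libraries, sequenced as single-end reads (50 bp in the methods, 100 bp in the labels), 1 sample per group. The authors used the HTSstation pipeline for RNA-seq on assembly NCBIM37 (mm9) and deposited an RPKM for each gene. The submitters' processing notes name Bowtie 0.12.7. How strand and multiply mapped reads were handled, and how the samples were scaled, is not given in the sources used here. Genes at 0 in both samples are not listed.

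RPKM values were used as deposited. The tables' starts count from 0 and were shifted by 1. Exonic lengths came from GENCODE M1 (same build, all 29311 genes matched). Values of genes up to 2500 bp, multiplied by length in kb, gave a step of 1.2219 per read for ES cells and 0.8191 for the forebrain. Of low values, 60.4% and 66.7% lay within 0.05 of a whole read, and others fell near fractions of a read. Reads were rounded. The step was recovered on data simulated with whole reads only. As these held no fractions of a read, they could not show whether such fractions misled the choice of step in the real values. The inferred reads and their intervals rest on that choice. Ratios used a pseudocount of 1. Intervals (95%) are exact Poisson for levels, exact binomial for ratios and shares of 2 genes, and a normal approximation on the log scale for ratios of ratios and shares over more genes. Copies were sought with blastn 2.17.0 in the genome for coding sequences. The named genes were the 10 members, the genes of the role lists, leading genes of marker lists and the genes nearest to *Ctcf*. Outside this rule, *Xist*, *Lhx2*, *Pecam1*, *Stra8*, *Spo11*, *Mki67*, *E2f6*, *L3mbtl2*, *Pcgf6*, *Mga* and *Max* were named after their values were seen. The members and lists were chosen with earlier results of these data known. Alternatives covered pseudocount, scaling, threshold, a filter on low values and shares of reads. No test was made. Python 3.11.15, numpy 2.4.6, pandas 2.3.3, scipy 1.17.1 and matplotlib 3.10.9 were used.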

Additional observations from a re-analysis of the deposited data

How the results depend on the processing

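Without replicates, no sample could be left out, and no paired analysis was possible because each group has 1 sample. Of 131 alternatives, 34 of which were added after the data were seen, 72 left the value within its counting error or a count within 1.5 times, 59 moved it and 0 reversed a difference past 2-fold. Scaling moved the log2 ratio of all genes by -0.27 (sum of RPKM) to 0.18 (protein-coding median). Neither such shifts nor a pseudocount can reverse a difference past 2-fold, so the count of 0 was fixed in advance. Smaller differences did change sign, as the log2 ratio ranged from -0.41 to 0.04 for *Ctcf* and from -0.13 to 0.32 for *Smc3*. The median log2 ratio of the 10 genes was -0.52 with the sum of RPKM, -0.16 with the upper quartile, -0.07 with the protein-coding median, -0.34 per inferred reads on genes and -0.36 with the sum over protein-coding genes without erythroid genes, the last 2 added after the data were seen. With the sum of RPKM, 2 of the 10 genes (*Smc1a* at -1.03 and *Nipbl* at -1.07) were 2-fold higher in E10.5 forebrain. That scaling moved all genes towards forebrain, and the share of all genes past 2-fold under it is not given here. As deposited, that share was 25.8% of all listed and 27.9% of protein-coding genes. With a limit of 1.5-fold, 3 of the 10 genes were higher in forebrain, where 34.2% of all listed genes were. Under the limit of 1.5-fold 13 of the 27 other genes were called, 8 higher in ES cells and 5 in forebrain. Of all listed genes 32.5% were higher in ES cells under that limit and 34.2% in forebrain. Of protein-coding genes 27.6% and 37.3% were, so the counts are not read as a difference from these shares. As shares of inferred reads not divided by length, *Stag2* held 63.4% in ES cells and 65.4% in forebrain, *Smc1b* 2.7% in ES cells, *Stag3* 9.39% and 0.775%, and *Rec8* with *Rad21l* 6.04% and 0.59%. The log2 ratio stayed between 2.69 and 3.93 for *Smc1b* and between 2.99 and 3.43 for *Stag3* under the pseudocounts and scalings tried. Depth limits *Smc1b*, *Rad21l* and *Ctcfl* in forebrain, where 14, 0 and 3 reads were inferred.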

Other observations

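E2F6 works in a Polycomb complex with MGA, MAX, PCGF6 and L3MBTL2, and these genes were looked up after the values of *Smc1b* and *Stag3* were seen, so they lie outside the lists used above. *E2f6* had 293.53 RPKM in ES cells and 787.05 RPKM in E10.5 forebrain, 2.68-fold higher in forebrain. The others were higher in ES cells. *L3mbtl2* had 1905.54 and 460.52 RPKM, *Pcgf6* 730.64 and 309.46 RPKM, *Mga* 1359.13 and 803.52 RPKM, and *Max* 553.78 and 346.63 RPKM. The ratios of ES cells over forebrain were 4.14 for *L3mbtl2*, 2.36 for *Pcgf6*, 1.69 for *Mga* and 1.6 for *Max*. No relation between these levels and those of the meiotic genes was tested.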
